A study of Mus musculus with 2 samples.

Results

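The clustered protocadherins were examined in ear skin of mice treated with imiquimod, as 58 genes of the 34745 in the count table. Members were all genes whose symbol starts with Pcdha, Pcdhb or Pcdhg followed by a letter or digit, and they comprised 14 alpha, 22 beta and 22 gamma genes. The family was chosen by its log2 ratios in the comparison described here, in which single gamma genes had stood out, so its values are a description and support nothing by themselves. RNA-seq had been performed on 2 libraries, 1 of wild-type ear skin (WT) and 1 of ear skin under the label KAT8-cKO, a conditional knockout of the histone acetyltransferase gene Kat8. The treatment was the same in both, 30 mg of 5% imiquimod cream per ear and day over 3 days with collection on day 4. Imiquimod activates Toll-like receptor 7 and inflames the skin. The promoter or cell type that drives the knockout, and the strain, sex, age and number of animals behind a library, are not stated in the labels. With 1 library per group there is no replicate, so no test was run and no p-value is given. Every difference below is between these 2 libraries, and every interval is an exact 95% interval (Clopper-Pearson) that covers counting error only. Reads counted without molecular barcodes need not stem from separate molecules, so even that error may be understated.

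Clustered protocadherins are adhesion proteins of the cadherin superfamily, best known in neurons, where each cell uses a small set of them as a surface identity code. In the alpha and gamma clusters every gene has its own large variable exon, which encodes the extracellular part, the membrane span and the start of the cytoplasmic tail, and this exon is spliced to a set of constant exons that all genes of the cluster share. Beta genes consist of a large exon of their own and have no constant exons. Promoter choice in the clusters is known to depend on DNA methylation, the insulator protein CTCF and cohesin. The C-type genes at the end of the alpha and gamma clusters are regulated apart from the others.

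In the annotation used (GENCODE M21 on GRCm38, the assembly that mm10 names) all 58 members lie on the plus strand of chromosome 18. The alpha cluster spans 36930184 to 37187661, the beta cluster 37264938 to 37524479 and the gamma cluster 37661793 to 37841873. The gamma genes have 3 constant exons (37825021 to 37825079, 37833265 to 37833353 and 37839903 to 37841870 as far as every member carries them), 2116 bases in all, and the alpha genes have 3 with 2860 bases. The exon length that a gene shares with other members was a median of 44.7% in the gamma cluster (27.8% to 66.8%) and 53.4% in the alpha cluster (38.0% to 54.9%). In the beta cluster only Pcdhb21 and Pcdhb22 shared exon bases, 455 of them. The largest shared lengths in the gamma cluster were 3157 bases at Pcdhga4 and 3154 at Pcdhgb1, more than the 2116 constant bases. The variable exons were largely distinct from each other. A median of 99.3% of the 50-base stretches in the variable exons of gamma genes occurred in the variable exon of no other member. The lowest values were at Pcdhgb2 (82.1%) and Pcdhgb1 (83.2%). The median was 95.7% for beta genes and 85.3% for alpha genes.

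Kat8, the targeted gene, had 219 WT and 351 KAT8-cKO counts, and the ratio of scaled counts was 1.27 (interval 1.07 to 1.51). The knockout label was thus not matched by a lower Kat8 count, and WT and KAT8-cKO below mean the libraries labelled so. The libraries held 12179608 and 13727524 counts. Xist, expressed from the inactive X of female cells, had 11891 and 6 counts and the Y-linked gene Eif2s3y 0 and 838. That is the pattern of a female WT and a male KAT8-cKO library, though the labels do not state sex. Sex and the genotype label therefore cannot be told apart for any gene compared here. Levels are given as CPM, counts scaled to a common library size after correction by the trimmed mean of M values (TMM). A log2 ratio is log2 of (KAT8-cKO CPM + 1) over (WT CPM + 1), which understates differences of low genes. A gene was measured if it reached 1 CPM in either library, about 11.5 counts in WT and 14.5 in KAT8-cKO. A log2 ratio of 1 or more, or of -1 or less, was a call (2-fold on this scale), so that a low gene can differ by more than 2-fold in plain ratio without being called.

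Single gamma genes were up to 168-fold higher and up to 45.3-fold lower in KAT8-cKO than in WT, while the gamma cluster as a whole differed by 1.23-fold and the beta cluster by 1.05-fold. Gamma counts summed to 2539 in WT and 3919 in KAT8-cKO, 220.4 and 270.0 CPM (ratio 1.23, interval 1.17 to 1.29). Beta counts summed to 394 and 472, 34.2 and 32.5 CPM (ratio 0.951, interval 0.830 to 1.09), and this ratio was 1.06 when counts were scaled by the library total alone. Alpha counts summed to 12 and 2 (ratio 0.132, interval 0.0144 to 0.594). Summed CPM per kb of exon was 3.11 in WT and 3.81 in KAT8-cKO for the gamma cluster and 0.371 and 0.353 for the beta cluster. The gamma genes held 86.2% of all clustered protocadherin counts in WT and 89.2% in KAT8-cKO.

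Of 33 measured members 5 were called higher and 4 lower in KAT8-cKO, 27.3% together. Over all 15240 measured genes 4.56% were higher and 8.63% lower, 13.2% in either direction, and without the members the shares were 4.54% and 8.62%. Scaled by the library total, the 695 higher and 1315 lower genes became 964 and 1056. Nothing is read from the members' share, since this comparison chose them. The same holds for its difference between clusters, since single gamma genes had stood out in the choice. Beta genes were also lower, at most 7.86 CPM in a library beside 75.9 CPM for gamma genes. The log2 ratio used here understates differences of such low genes. In the gamma cluster 8 of 20 measured genes were called (40.0%), 5 higher and 3 lower, and in the beta cluster 1 of 13 (7.69%). Some of these genes could only pass the filter through the library in which they were high. Among the 14 gamma genes that reached 1 CPM in both libraries 4 were called, and among the 9 such beta genes 0 were. The share over all genes under this stricter filter was not computed, so nothing is read from these counts. Measured genes had a median log2 ratio of -0.12 in the gamma cluster and 0.00 in the beta cluster, beside 0.01 over all measured genes. Scaled by the library total it was 0.00 and 0.11, beside 0.16 over all.

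**Figure D1:**
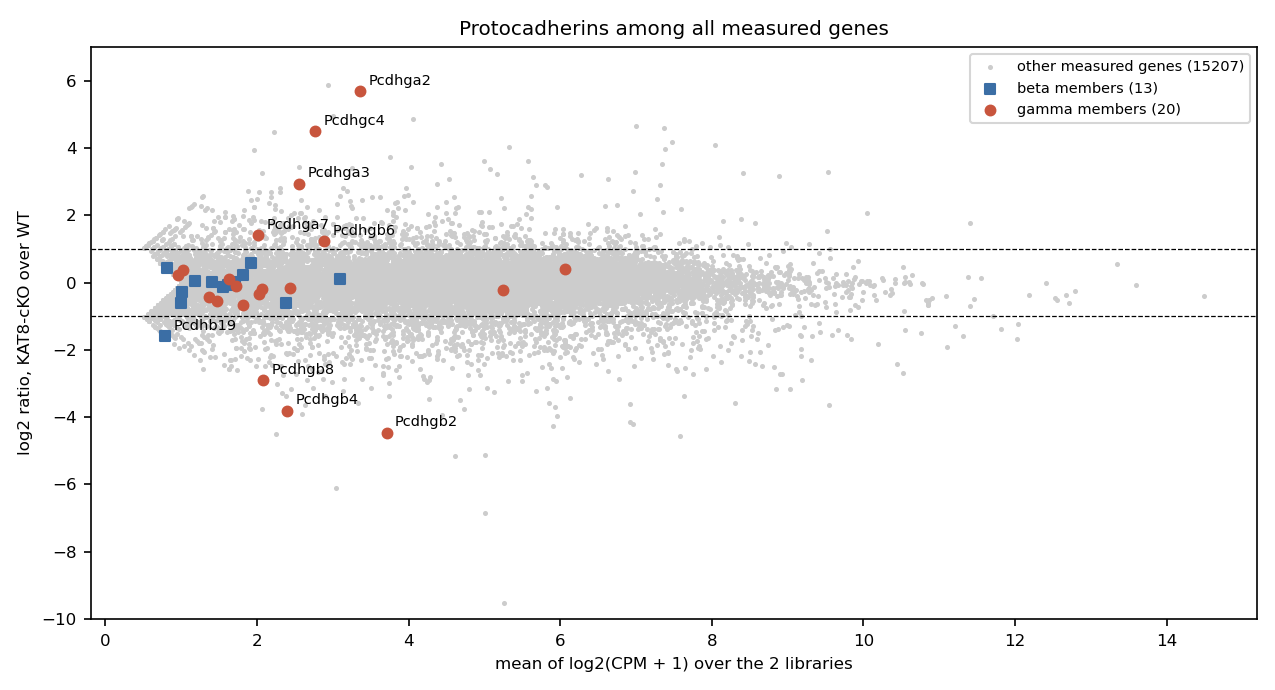
Log2 ratio of KAT8-cKO over WT (vertical axis) against the mean of log2(CPM + 1) over both libraries (horizontal axis) for each measured gene. Dashed lines mark log2 ratios of 1 and -1. Of the gamma genes (circles) 5 lie above and 3 below the lines, and of the beta genes (squares) Pcdhb19 lies below.

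The gamma genes of A type, 12 genes whose variable exons alternate along the cluster with those of B type, were led by different genes in the libraries. Pcdhga2 (37668953 to 37841870) had 5 counts in WT and 1059 in KAT8-cKO. That is 0.434 against 73.0 CPM, 168-fold higher (interval 71.8 to 519). Pcdhga3, the next gene along the chromosome, had 13 and 222 counts, 13.6-fold higher (interval 7.77 to 25.9). Pcdhga7 had 17 and 81 counts, 3.78-fold higher (interval 2.22 to 6.81). These 3 are all the A-type genes that were called.

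Pcdhga5 was the A-type gene with the most counts in WT, and it was high in both libraries. It had 460 and 493 counts, 39.9 and 34.0 CPM (log2 ratio -0.23), 1.18-fold lower (interval 1.03 to 1.34). The other A-type genes were low in both. Pcdhga1 had 54 and 60 counts, Pcdhga10 41 and 38, Pcdhga12 40 and 26, Pcdhga11 28 and 32, Pcdhga6 23 and 32 and Pcdhga8 23 and 18. Their log2 ratios ran from -0.68 (Pcdhga12) to 0.10 (Pcdhga6). Pcdhga4 had 9 and 19 counts and Pcdhga9 8 and 8. Summed over the A-type genes the counts were 721 in WT and 2088 in KAT8-cKO, 2.30-fold higher (interval 2.11 to 2.51), and 1059 of the latter were those of Pcdhga2.

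Of the 6 measured gamma genes of B type, 3 were called lower and 1 higher. Pcdhgb2 (37689828 to 37841873) had 696 counts in WT, the most of any clustered protocadherin there, and 26 in KAT8-cKO. That is 60.4 against 1.79 CPM, 33.7-fold lower (interval 22.8 to 52.0). Pcdhgb4 had 216 and 6 counts, 45.3-fold lower (interval 20.5 to 125). Pcdhgb8, annotated as a polymorphic pseudogene, had 122 and 8 counts, 19.2-fold lower (interval 9.45 to 45.5).

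A single B-type gene was called higher in KAT8-cKO. Pcdhgb6 had 44 and 150 counts, 2.71-fold higher (interval 1.92 to 3.88). Pcdhgb7 had 27 and 19 counts, Pcdhgb5 9 and 16 and Pcdhgb1 4 and 9, all low in both libraries. The 7 B-type genes summed to 1118 counts in WT and 234 in KAT8-cKO, 6.02-fold lower (interval 5.22 to 6.96). Of these counts the 3 genes called lower held 1034 and 40. By CPM 4 of the 7 genes were lower in KAT8-cKO and 3 higher, so the sum does not describe each gene.

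The 3 C-type gamma genes lie closest to the constant exons. Pcdhgc3, known to bind the Wnt pathway scaffold Axin1 and to promote dendrite branching, was high in both libraries, with 655 and 1101 counts or 56.9 and 75.9 CPM (log2 ratio 0.41). Pcdhgc4, required for the survival of cortical interneurons, had 5 counts in WT and 454 in KAT8-cKO. That is 0.434 against 31.3 CPM, 72.1-fold higher (interval 30.7 to 223). Pcdhgc5 had 40 and 42 counts. Of the C-type genes only Pcdhgc4 was called, and together they summed to 700 and 1597 counts, 1.81-fold higher (interval 1.66 to 1.98).

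**Figure D2:**
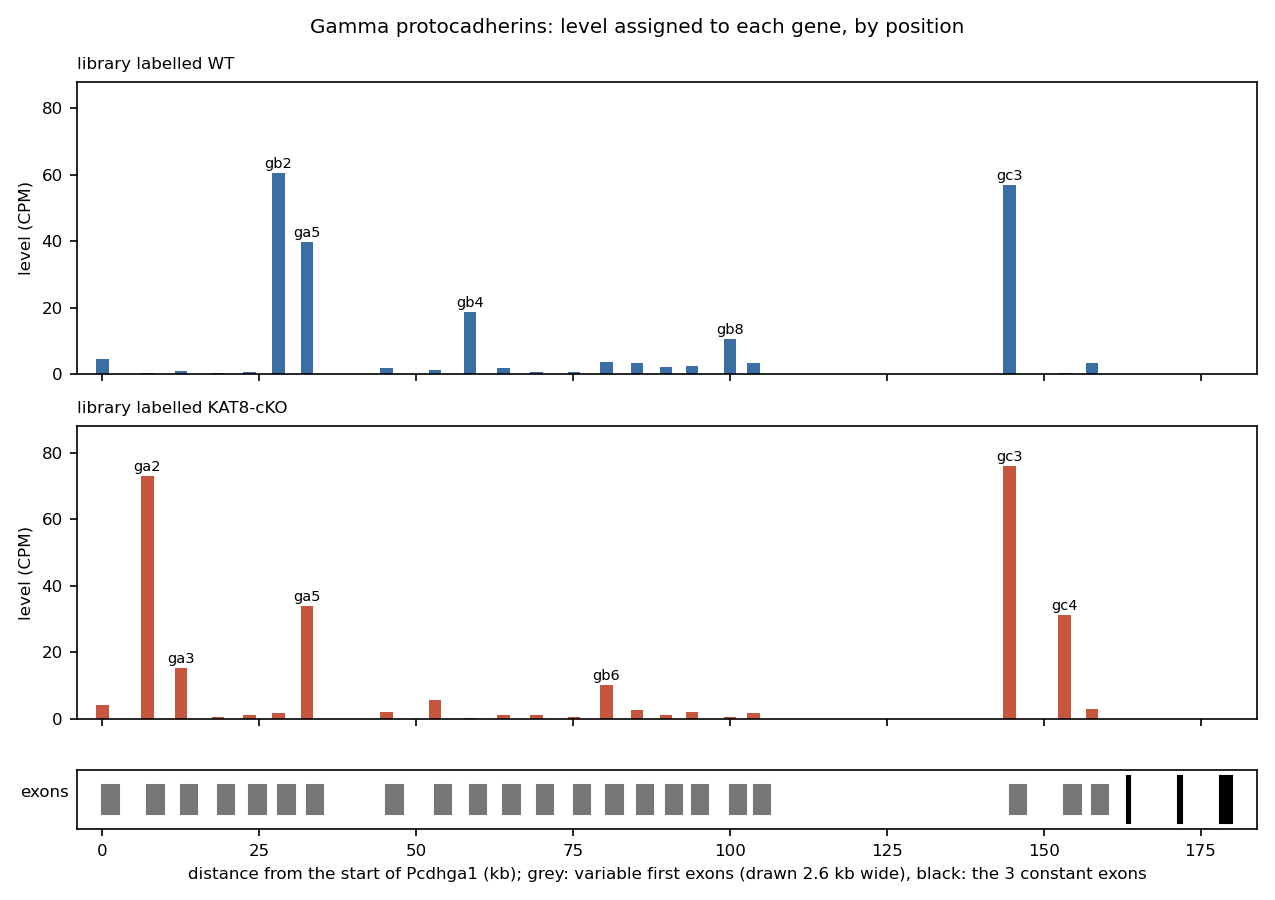
Level of each gamma gene in CPM (vertical axes) at the position of its variable exon, as distance in kb from the start of Pcdhga1, in WT (upper panel) and KAT8-cKO (middle panel). The lower track shows variable exons in grey, drawn at a fixed width, and the 3 constant exons in black. Pcdhgc3 and Pcdhga5 are high in both panels, Pcdhgb2, Pcdhgb4 and Pcdhgb8 in the upper and Pcdhga2, Pcdhga3 and Pcdhgc4 in the middle panel.

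The gains and losses of single gamma genes mostly offset each other. The genes with more CPM in KAT8-cKO gained 149 CPM in all and the sum over those with less fell by 98.9 CPM, so the summed absolute difference was 247 CPM. The net difference was 49.7 CPM, 20.1% of that. The 5 genes called higher accounted for 86.3% of the gain and the 3 called lower for 87.99% of the loss. The cluster total was 1.17-fold higher after the 2 largest differences in each direction (Pcdhga2, Pcdhgc4, Pcdhgb2 and Pcdhgb4) were left out, an alternative chosen after seeing the data, and 1.19-fold higher without Pcdhgc3, the gene with the most counts. The 14 gamma genes that were not called summed to 1421 and 1913 counts, a ratio of 1.07 (interval 0.997 to 1.15). They were selected for not being called, so the value describes what is left and is no separate evidence. In the beta cluster the net difference was -15.5% of the summed absolute difference, or 17.1% when scaled by the library total. A small net share was thus also found in the beta cluster, but its summed absolute difference was only 10.8 CPM. In the beta cluster 4 of the 21 genes with counts (19.0%) had an interval that excluded the ratio of the cluster total. In the gamma cluster 13 of 22 did (59.1%), though the family was chosen by such genes. The part of counting error in the offsetting of the low beta genes was not tested.

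**Figure D3:**
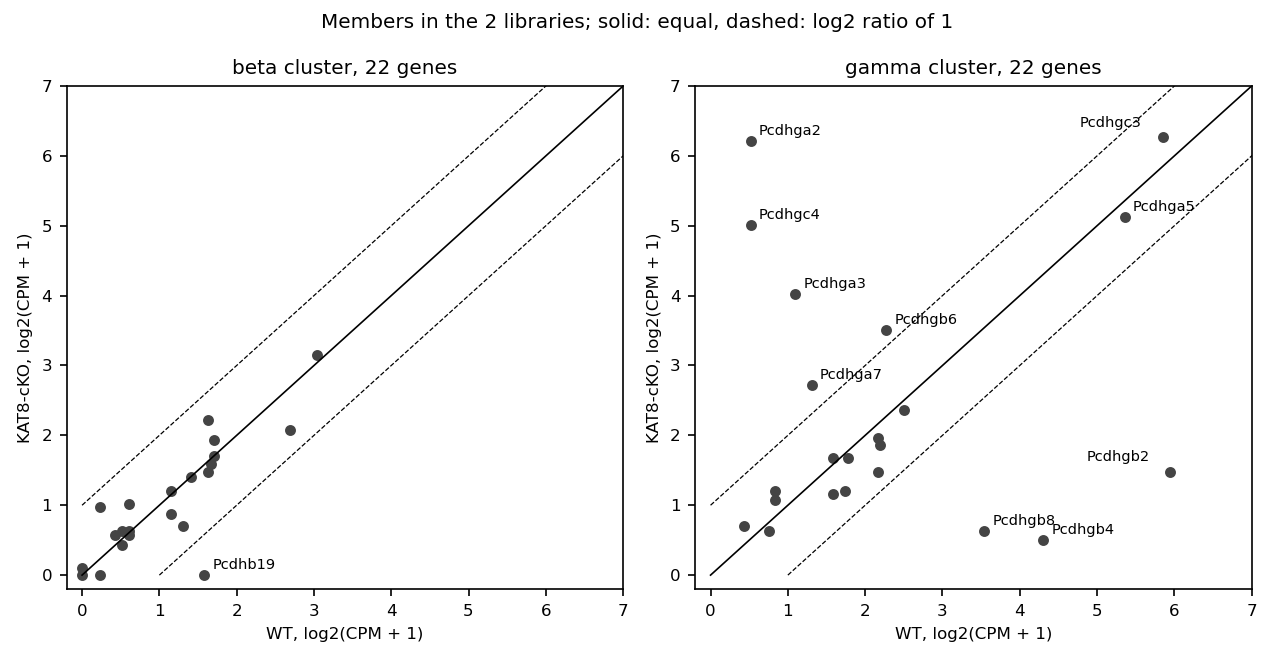
Level of each gene as log2(CPM + 1) in WT (horizontal axis) and KAT8-cKO (vertical axis), for the 22 beta genes (left) and the 22 gamma genes (right). Solid lines mark equal levels and dashed lines a log2 ratio of 1. Of the beta genes Pcdhb19 lies outside the dashed lines, and of the gamma genes 8 do.

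The division of counts among members was less alike between the libraries in the gamma than in the beta cluster. The family was chosen by single gamma genes that differed between these libraries, so this contrast is a description only. The composition that both libraries had in common, the sum over genes of the smaller of the 2 shares, was 50.6% of the gamma counts and 83.2% of the beta counts. Spearman's rho between the libraries was 0.10 over the 22 gamma genes and 0.82 over the 22 beta genes, as a description across genes that share a cluster, a library pair and, in the gamma cluster, exons. The concentration on few genes was close in both libraries. The effective number of gamma genes, the inverse of the summed squared shares, was 5.37 in WT and 5.35 in KAT8-cKO, beside 9.86 and 9.23 for beta genes.

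By share of gamma counts, WT was led by Pcdhgb2 (27.4%), Pcdhgc3 (25.8%) and Pcdhga5 (18.1%), and KAT8-cKO by Pcdhgc3 (28.1%), Pcdhga2 (27.0%) and Pcdhga5 (12.6%). The share of Pcdhgb2 in WT and that of Pcdhga2 in KAT8-cKO were nearly alike. By type, A, B and C genes held 28.4%, 44.0% and 27.6% in WT and 53.3%, 5.97% and 40.8% in KAT8-cKO. The table gives 1 count per gene, which adds reads in the variable exon to reads in the shared constant exons however these were assigned. A different choice of variable exon and a different assignment of reads from the constant exons therefore cannot be told apart from these values.

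**Figure D4:**
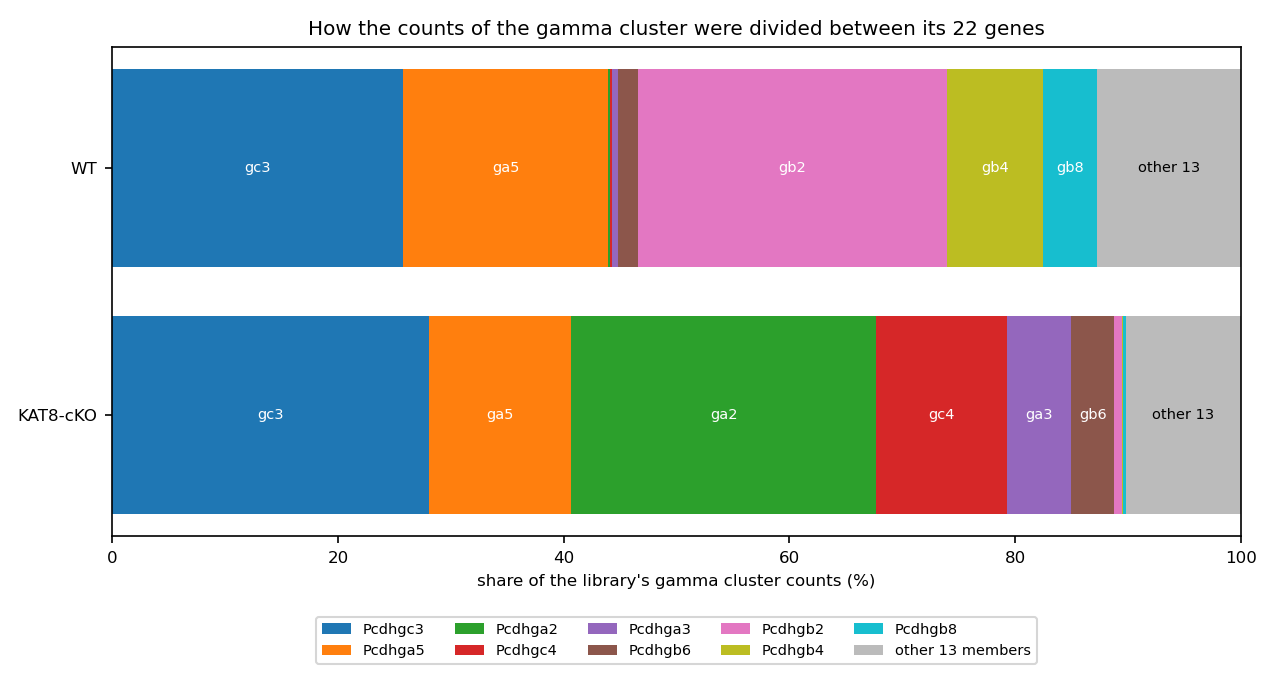
Share of each library's gamma counts (horizontal axis, percent) held by 9 gamma genes and, in light grey, by the other 13 together, in WT (upper bar) and KAT8-cKO (lower bar). The other 13 hold 12.7% and 10.2%. Pcdhgb2, Pcdhgb4 and Pcdhgb8 take up a large part of the upper bar, and Pcdhga2, Pcdhgc4 and Pcdhga3 a large part of the lower.

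Beta genes, which have no constant exons, were low in both libraries, and 12 of the 13 measured were not called. Pcdhb17 had the most counts, 83 in WT and 114 in KAT8-cKO (7.20 and 7.86 CPM, log2 ratio 0.11). Pcdhb22 had 63 and 47 counts (log2 ratio -0.61), Pcdhb18 26 and 33, Pcdhb20 26 and 41, Pcdhb14 25 and 29, Pcdhb9 24 and 26 and Pcdhb16 24 and 53. Among these genes Pcdhb16 was the one with the highest log2 ratio, 0.59, and a plain ratio of 1.75 (interval 1.06 to 2.97). None of them reached the call. Pcdhb7 had 19 and 24 counts, Pcdhb12 14 and 19, Pcdhb5 14 and 12, Pcdhb11 17 and 9 and Pcdhb4 6 and 15. The log2 ratio of Pcdhb11 was -0.61 (2.38-fold lower by plain ratio, interval 1.003 to 6.06), and with a pseudocount of 0.1 CPM it was -1.13, past the call.

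Pcdhb19 was the only beta gene called. It had 23 counts in WT and 0 in KAT8-cKO, at least 9.66-fold lower taking the limit of 3 counts that 0 allows in KAT8-cKO. That value leaves out the counting error of the 23, and the exact interval of the ratio reaches up to 0.138. Its neighbours Pcdhb18 and Pcdhb20 did not go with it (26 and 33, 26 and 41 counts). It shares no exon base with another member, and 96.9% of the 50-base stretches in its variable exon occur in that of no other. Pcdhb8 had 2 and 14 counts, 5.56-fold higher (interval 1.28 to 50.4), just under the filter at 0.965 CPM. The remaining beta genes (Pcdhb1, Pcdhb2, Pcdhb3, Pcdhb6, Pcdhb10, Pcdhb13, Pcdhb15 and Pcdhb21) had from 0 to 8 counts in a library. Pcdhb1 had 0 in both.

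The alpha genes had almost no counts, and none was measured. Counts were 0 in both libraries for 12 of 14 genes, and in a library without counts for a gene the floor of 3 counts is 0.260 CPM in WT and 0.207 CPM in KAT8-cKO. Pcdha12 had 8 counts in WT and 0 in KAT8-cKO, at least 3.36-fold lower by the same limit, and the exact interval of the ratio reaches up to 0.465. Pcdhac2, a C-type gene needed for the spacing of serotonergic axons, had 4 and 2, 2.52-fold lower with an interval of 0.361 to 27.9. The alpha total of 12 against 2 counts rests on Pcdha12, since without it the ratio was 0.397 in place of 0.132. The symbol Pcdha11 stands for 2 gene identifiers in the annotation, both at 0. Gm37013, Gm37388 and Gm42416, which share exon bases with 1 alpha gene and with all 22 gamma genes, had 0 counts. Gm38182, which shares exon bases with the 22 gamma genes, had 3 and 4 counts. With such same-strand genes included, an alternative chosen after seeing the data, the gamma total ratio was again 1.23. BC037039, antisense to Pcdhgc3, had 53 and 62 counts, and without the strand setting such reads cannot be told apart.

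**Figure D5:**
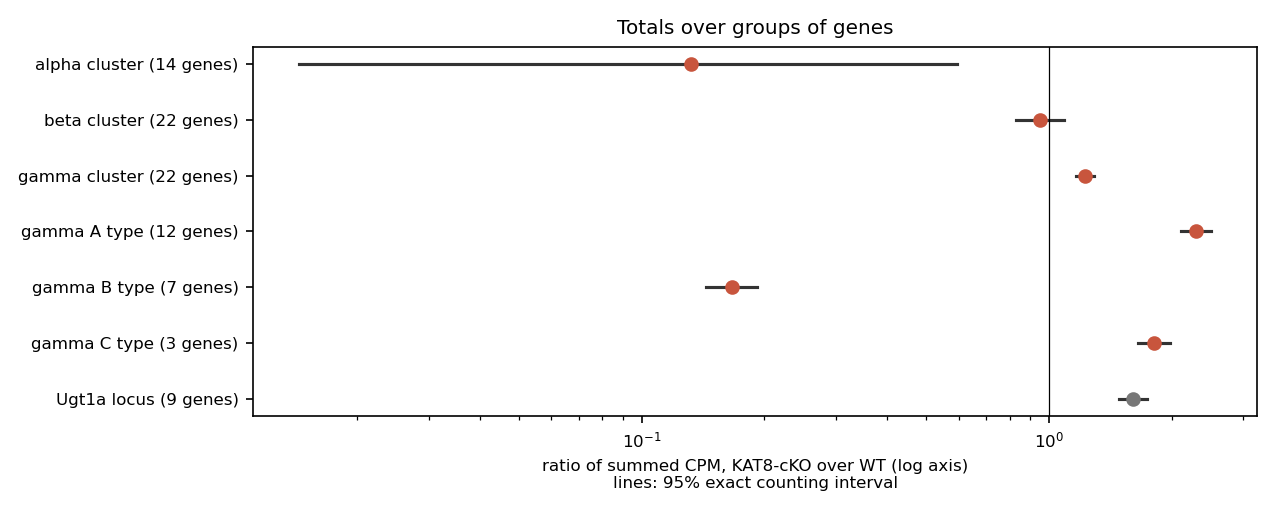
Ratio of summed CPM, KAT8-cKO over WT (horizontal axis, log scale), with its exact 95% counting interval as a line, for each protocadherin cluster, for the gamma genes by type and for the Ugt1a locus. The beta total sits at 0.951 and the gamma total at 1.23, while the gamma A, B and C types sit at 2.30, 0.166 and 1.81. Each gamma type holds genes that are higher and genes that are lower in KAT8-cKO.

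A further locus of the same design was examined beside them. Among all genes of the table, 49 shared exon bases on the same strand with 5 or more other genes. These were the 36 alpha and gamma protocadherins, the 9 Ugt1a genes and the 4 genes just named that overlap the gamma genes. Ugt1a genes encode glucuronosyltransferases from variable exons spliced to common ones. They diverged as well. Ugt1a1, which conjugates bilirubin, went from 109 to 1555 counts (11.3-fold higher), while Ugt1a6a and Ugt1a6b went from 326 to 83 and from 192 to 33 (4.95-fold and 7.33-fold lower). The Ugt1a total was 976 and 1978 counts, 1.61-fold higher (interval 1.49 to 1.74), and its net difference was 35.7% of the summed absolute difference. Among other measured genes, calls were counted by whether a gene shares any exon base on the same strand with another gene. The share called was 12.9% of 766 such genes (4.96% higher, 7.96% lower) and 13.2% of 14441 without any (4.51% higher, 8.66% lower). Any overlap counted there, however short, and whether longer sharing goes with calls was not tested.

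Genes beside the clusters were taken as named protein-coding genes within 300 kb. Of 19 measured none was called higher and 2 were called lower, beside 4.56% higher and 8.63% lower over all measured genes. The same shares stand beside the further lists below. The median log2 ratio of the neighbours was -0.13 (0.02 scaled by the library total). Cd14, the monocyte co-receptor for bacterial lipopolysaccharide, went from 882 to 164 CPM (5.39-fold lower) and the translation inhibitor gene Eif4ebp3 had 20 and 4 counts. Rell2, named after its value was seen, had the highest log2 ratio of the neighbours, 0.82, with 9 and 31 counts (2.73-fold higher by plain ratio, interval 1.27 to 6.53). Protocadherins outside the clusters, each a gene with exons of its own, had 1 called higher and 7 not called of 8 measured (median 0.21, or -0.13 with no filter). Pcdh7 and Pcdh1, the most abundant, had 558 and 402 and 397 and 368 counts. The higher one, Pcdh18, named after its value was seen, had 39 and 126 counts (2.56-fold). Pcdh10 and Pcdh9, also named after their values were seen, were not called but were 4.37-fold (interval 1.48 to 17.4) and 2.48-fold higher (interval 1.08 to 6.36) by plain ratio, from 4 and 22 and from 8 and 25 counts. Of the large cadherins 8 were measured, from the FAT, Dachsous and flamingo groups and Cdh23. Of these 8, 2 were higher, the planar polarity genes Celsr1 and Celsr2, both 2.39-fold.

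Of 24 genes listed as possible regulators of the clusters none was higher and 1 was lower (median 0.25, or 0.40 scaled by the library total). Rad21, a cohesin subunit, went from 189.7 to 210.4 CPM and Trim28, a co-repressor, from 137 to 201 CPM. The lower gene Tet2, a 5-methylcytosine oxidase, and the insulator gene Ctcf were named after their values were seen. Tet2 went from 75.6 to 36.2 CPM (2.09-fold lower) and Ctcf from 85.6 to 101 CPM. Among 19 genes for partners and processing enzymes of protocadherins none was higher and 3 were lower (median -0.07, or 0.08 scaled by the library total). Adam10, the protease that sheds gamma protocadherins, went from 121 to 35.8 CPM (3.38-fold lower). Abi2 and Cyfip2, subunits of the WAVE actin regulator, were 3.27-fold and 2.23-fold lower.

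Markers of cells that could carry protocadherins differed between the libraries, and their part in the protocadherin values was not tested. Fewer cells of a type and less RNA per cell cannot be told apart in whole skin. Schwann cell genes, all 12 measured, summed to 344 CPM in WT and 704 CPM in KAT8-cKO (5 higher, none lower, median 0.96), with Egr2, Sox10 and Ncmap 3.97-fold, 3.87-fold and 3.58-fold higher. Of 10 neuronal genes 6 had at most 3 counts in each library, among them Rbfox3 at 0 in both, and the list summed to 33.2 and 14.6 CPM. Its most abundant genes, Tubb3 and Uchl1, had 228 and 97 and 74 and 70 counts. Melanocyte genes summed to 31.4 and 28.0 CPM (1 lower of 5, median 0.38), with Mitf 4.00-fold lower and Dct 1.82-fold higher by plain ratio.

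Keratinocyte genes, the markers of the labelled tissue, were abundant in both libraries at 26165 and 26972 CPM in sum (1 higher and 2 lower of 6, median 0.21), with Krt15, Krt10 and Krt1 at log2 ratios of 2.73, -1.81 and -1.39. Sebaceous genes summed to 224 and 3424 CPM, 7 of 7 higher (median 3.26), with Far2, Fa2h, Elovl3 and Krt79 26.0-fold, 24.9-fold, 18.6-fold and 9.65-fold higher. Fibroblast genes had 1 of 6 higher (median 0.42), the collagen gene Col1a1 with 4826 and 13407 counts, and cartilage genes 4 of 5 (median 1.57). Endothelial genes had none of 6 called (median -0.48). All 6 muscle genes were lower (median -2.72) and adipocyte genes in 5 of 6 (median -3.64).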

How the data were processed

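RNA-seq of imiquimod-treated mouse ear skin was analysed as 2 libraries, 1 per genotype label. The values are integer counts per Ensembl gene as deposited by the authors. Whether they are plain read counts or were divided between genes by estimation is not stated, and the exact intervals treat them as plain counts. Per the submitters' processing notes, HISAT2, StringTie 1.3.0, edgeR and mm10 were used, in roles the notes used here do not give. The counting of reads in shared exons, the annotation release and the strand setting were not given in the sources used here. Symbols, exons and coordinates (from 1) came from GENCODE M21, which named 34267 genes.

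Counts were scaled by edgeR 4.0.16 TMM factors (0.946 and 1.06). A count was worth 0.0868 CPM in WT and 0.0689 CPM in KAT8-cKO. Ratios, exact intervals and calls were computed in Python 3.11.15 with scipy 1.17.1 and tested on simulated data. Exon sharing used the union of annotated exons. Variable exons, taken as the first exon of the longest coding transcript of each gene, were compared only with each other, as 50-base stretches. Alternatives were DESeq2 1.42.0 size factors (not its test), upper-quartile and library-total scaling, other filters and pseudocounts.

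The members and 16 gene lists were chosen with earlier results of these data known. In each cluster the rule named up to 8 genes with the most counts and the 4 highest and 4 lowest ratios. In other lists it named up to 4 genes past 2-fold, or the 2 most abundant where fewer than 2 passed. Promoter and protein sequences of members are not used here, and 1 gene the rule names is not reported here.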

Additional observations from a re-analysis of the deposited data

How the results depend on the processing

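No result changed direction among called values. Scaled by the library total, the gamma total was 1.37-fold and the total over all 3 clusters 1.32-fold higher in KAT8-cKO (1.23 and 1.18 with TMM), and the gamma net difference was 30.5% of the summed absolute difference. That net share was 13.4% without Pcdhgc3 and, in an alternative chosen after seeing the data, 26.3% without the called genes. The cause was not tested. Library-total scaling moved the median log2 ratio of all measured genes from 0.01 to 0.16 and the share of calls that were higher from 34.6% to 47.7%. It changed neither count of called members, 5 higher and 4 lower. Lower calls were 3 with a filter of 5 CPM and 5 with a pseudocount of 0.1. The neuronal median was -0.24 with no filter in place of -0.98. Leaving out a replicate was not possible with 1 library per group. No paired analysis was possible because each group has 1 library. The filter was reached by none of the 14 alpha and 13 of the 22 beta genes.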
